A study of Mus musculus with 8 samples.

Results

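Long intergenic noncoding RNAs (lincRNAs) that were well expressed in the mouse dorsal forebrain were followed across loss of Sufu. A gene was a member when the deposited gene table gave its biotype as lincRNA and its raw counts over the 8 samples summed to at least 800. Meg3, Mirg, Dio3os and H19, which the rule names with 5 others for removal, and 4 genes on the X and Y chromosomes were left out. This gave 116 genes of the 3011 lincRNA rows, among 43629 genes in all, and 1397 of the lincRNA rows had at least 1 count. All 116 passed the low-count filter of the test. The genes nearest the threshold were Pvt1 and Gm27032 just outside, with sums of 779 and 781 counts, and 3222401L13Rik and Gm17259 just inside, with 803 and 810. Members were thus chosen by the measured count sum over both genotypes. The contrast between genotypes is not part of that sum, but of the 4 lincRNAs removed by name that meet it Meg3, Mirg and Dio3os were higher in the knockouts (log2 fold changes of 1.24, 1.52 and 6.02), so the removal lowers the count of higher members. For 9 members the 4 samples of 1 genotype alone held under 400 counts, and 5 of these 9 passed the test described next (Gm26793, 6330403L08Rik, AU022754, Gm2061 and Gm28151).

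LincRNAs are transcribed, capped, spliced and polyadenylated much like messenger RNAs but are not known to be translated. Some act in the nucleus as scaffolds, some are the precursors from which microRNAs or small nucleolar RNAs (snoRNAs) are cut, and many start beside a coding gene, on the other strand, so that a shared promoter region serves both. In the embryonic forebrain, lincRNAs include the hosts of miR-9, a microRNA abundant in neural progenitors, and transcripts next to genes of neural transcription factors. Sufu binds the Gli transcription factors and holds back the response to hedgehog ligands.

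The samples were whole dorsal forebrain from male mouse embryos of a mixed strain background that includes C57BL/6J, at embryonic day 12.5, profiled by poly(A) RNA-seq. The 4 conditional knockouts (Sufu-cKO) carried Emx1-cre/+ and Sufu-fl/fl. The 4 controls were labelled as either Sufu-fl/fl or Sufu-fl/+, with no label saying which sample was which. Cre under Emx1 acts in progenitors of the dorsal telencephalon and their progeny, so cells of other origin in the tissue keep Sufu. The question was how the expressed lincRNAs differed between the 2 genotypes. Whether samples of a genotype came from separate litters is not labelled, and the p-values cover only how these samples differ among themselves.

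Samples held 27514357 to 34878838 gene counts, and the members took 0.422% to 0.524% of them. Sufu itself stood at 106, 125, 112 and 105 CPM (counts scaled to a common library size, per 1e6) in Cont_294, Cont_345, Cont_365 and Cont_370, and at 44.8, 44.5, 37.4 and 35.9 CPM in Mut_295, Mut_317, Mut_337 and Mut_340. All 4 knockouts lay below all 4 controls, as the labels state. CPM here is scaled by TMM, edgeR's correction for composition, and every list of 4 values below keeps this sample order. All 6 hedgehog response genes examined were higher in the Sufu-cKO samples. Of 8 markers of dorsal progenitors, 3 were higher and 4 lower, and their summed level was 2251 to 2582 CPM in the controls against 2402 to 2694 in the knockouts. Markers of other cells differed with genotype too. Choroid plexus markers, 7 of 10 of them lower, summed to 534 to 811 CPM in the controls against 92.8 to 295.4 in the knockouts, lowest in Mut_340. GABAergic and ventral markers, 1 of 10 higher, summed to 102 to 211 and 127 to 323 CPM. Microglial markers, 2 of 8 lower, summed to 41.5 to 54.8 and 31.8 to 40.8 CPM, and endothelial markers, 2 of 8 lower, to 292 to 338 and 254 to 300. Cortical neuron markers, 2 of 8 higher (Dcx and Tbr1, log2 fold changes of 0.47 and 0.29), summed to 1714 to 2038 and 2033 to 2309 CPM. Of 6 Cajal-Retzius markers Ndnf was higher and Reln lower (log2 fold changes of 1.90 and -0.40), and their sums were 234 to 262 and 197 to 243 CPM. Of 8 erythroid markers edgeR called 0 (4 at an unadjusted p under 0.05) and DESeq2 1, and the sums were 3495 to 4516 and 3019 to 3476 CPM. No listed marker was at 0 in the mean of either genotype. Their part in the differences below was not tested, and in whole tissue fewer cells of a type cannot be told apart from less RNA per cell.

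By position, 10 members span a microRNA hairpin of the sequences used here on the same strand. Mir124-2hg is not among the 10, since its hairpin was not in those sequences. The mature sequences of the loci that the results below turn on are shown because loci that make an identical microRNA can be compared as a group. They are from RefSeq (GRCm38.p6), 5′ to 3′, with the seed (bases 2 to 8) in capitals. The miR-9 pair is encoded identically at 3 member loci: Mir9-1 in Gm3764 (chr3:88215598-88215686, plus strand), Mir9-2 in C130071C03Rik (chr13:83738814-83738885, plus strand) and Mir9-3 in AI854517 (chr7:79505264-79505353, plus strand).
mmu-miR-9-5p: uCUUUGGUuaucuagcuguauga
mmu-miR-9-3p: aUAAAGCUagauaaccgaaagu
Mir670 lies in E530001K10Rik (chr2:94261300-94261399, minus strand) and gives this pair.
mmu-miR-670-5p: aUCCCUGAguguauguggugaa
mmu-miR-670-3p: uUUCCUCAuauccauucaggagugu
Mir17hg holds 6 hairpins, and its leading products fall into seed groups: miR-17-5p and miR-20a-5p share AAAGUGC, miR-19a-3p and miR-19b-3p share GUGCAAA, and miR-18a-5p and miR-92a-3p each have their own.
mmu-miR-17-5p: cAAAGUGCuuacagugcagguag
mmu-miR-20a-5p: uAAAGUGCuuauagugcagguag
mmu-miR-19a-3p: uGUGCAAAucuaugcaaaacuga
mmu-miR-19b-3p: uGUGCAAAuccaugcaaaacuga
mmu-miR-18a-5p: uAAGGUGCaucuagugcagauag
mmu-miR-92a-3p: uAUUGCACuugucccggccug
The host 6720427I07Rik holds Mirlet7d (chr13:48536012-48536114, minus strand), whose leading product belongs to the let-7 family.
mmu-let-7d-5p: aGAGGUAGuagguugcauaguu

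Across the set, 8 members were higher and 9 lower in the Sufu-cKO samples at an adjusted p under 0.05 (edgeR's quasi-likelihood test on the raw counts, Benjamini-Hochberg over all 15382 tested genes). A gene past this threshold is said below to be called. The 17 called members are 14.7% of the 116 members, beside 11.0% of all tested genes. Leaving out the 9 members with under 400 counts in 1 genotype gave 12 of 107 (11.2%), a step that removes members that differ, and adding back the 4 lincRNAs removed by name gave 20 of 120 (16.7%). By direction, 6.9% of members and 5.34% of all tested genes were higher, and 7.76% and 5.64% were lower. The median log2 fold change was -0.01 over the members and 0.01 over all tested genes. At an unadjusted p under 0.05 stood 25.9% of members and 22.5% of all tested genes. The groups did not overlap for 21 members (18.1%, beside 16.2% of all tested genes), of which 14 were called. Called by the same test were 10.8% of all 390 tested lincRNA genes, 8.11% of the 259 of them under the count minimum, 7.42% of antisense genes and 11.4% of protein-coding genes. The members' calls were not crowded at 1 level: ordered by mean CPM, the 4 blocks of 29 members held 5, 4, 5 and 3. Each count rests on single libraries in part. Without Cont_365 the higher calls fell to 5. The lower calls were 4 without Cont_294, 5 without Cont_345 and 5 without Mut_337, and DESeq2 gave 14 lower. Calls over all genes moved in the same fits, so these changes are not particular to the members. Against 1689 with all samples, they were 1183 without Cont_365, 1267 without Cont_294, 1079 without Cont_345 and 1423 without Mut_337. DESeq2 gave 2130. The 7 calls that DESeq2 added were Gm3764, E330013P04Rik, A330048O09Rik, 1110002J07Rik and A730056A06Rik, all lower, and Gm26604 and 2810429I04Rik, both higher.

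**Figure D1:**
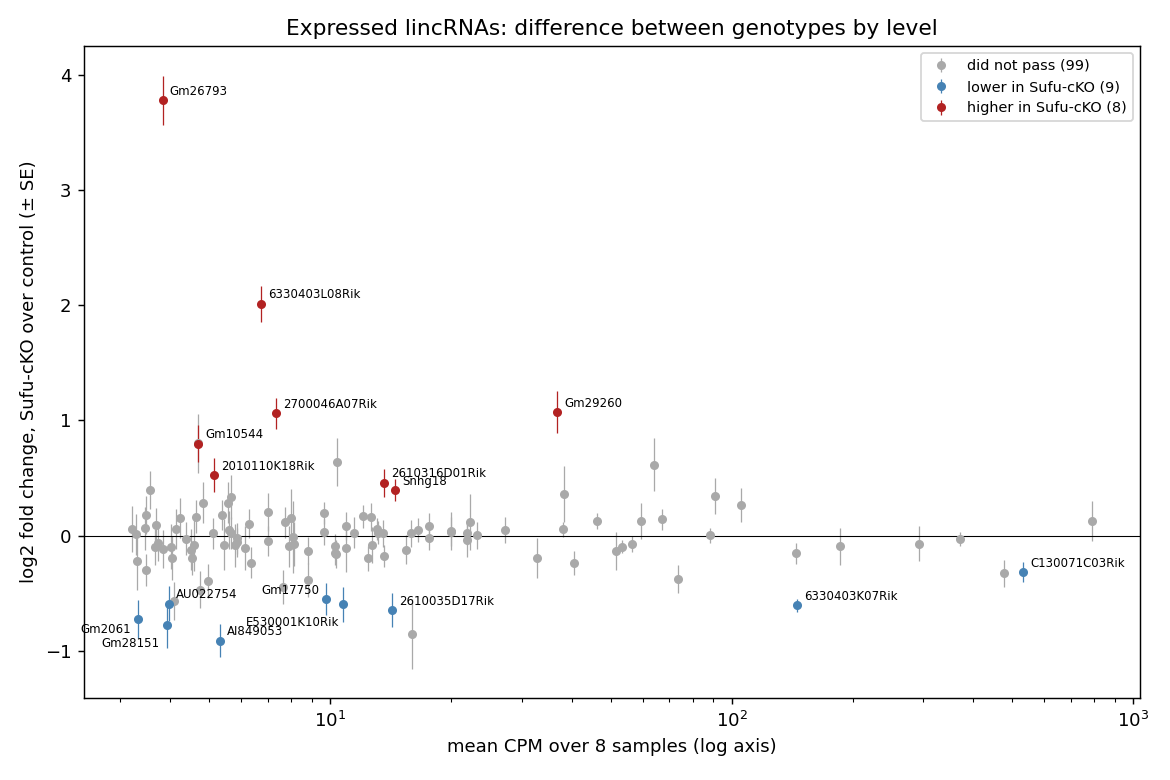
Log2 fold change of each of the 116 lincRNAs (Sufu-cKO over control, bars are the standard error) against its mean CPM over the 8 samples on a log axis. Most points lie near 0 and 4 of the 17 called lincRNAs differ by at least 2-fold, all 4 of them higher.

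The largest difference belonged to Gm26793 (chr7:144894560-144897461, minus strand), a transcript of unknown function. Its start is 929 bp from that of Fgf15 on the opposite strand, and it overlaps Fgf15 over 931 bp, with an exon overlap of 761 bp. It stood at 0.686, 0.328, 0.474 and 0.565 CPM in the controls and 8.08, 7.71, 6.62 and 6.14 CPM in the Sufu-cKO samples. The lowest knockout was thus far above the highest control, with a log2 fold difference of 3.78 (SE 0.22, edgeR, adjusted p = 8.48e-07), or 13.7-fold. Its neighbour Fgf15, a secreted fibroblast growth factor, was at 7.27, 2.33, 1.39 and 8.84 CPM and 262, 206, 273 and 304 CPM, with a log2 fold difference of 5.70 (SE 0.54, edgeR, adjusted p = 0.00119). Within each genotype the samples did not keep 1 order between the pair: among the knockouts Mut_340 was highest for Fgf15 and lowest for Gm26793.

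6330403L08Rik (chr5:138995056-139000577, plus strand) overlaps Pdgfa, the gene of a platelet-derived growth factor chain, over 2315 bp on the opposite strand. Its exons overlap those of Pdgfa over 813 bp. It was at 2.68, 2.15, 2.72 and 3.11 CPM in the controls and 9.60, 13.1, 11.0 and 9.43 CPM in the Sufu-cKO samples, with a log2 fold difference of 2.01 (SE 0.16, edgeR, adjusted p = 7.88e-06). Pdgfa, whose start site is 2314 bp away on the other strand, was at 5.90, 5.94, 7.14 and 8.78 and 34.6, 50.1, 40.9 and 30.2 CPM, with a log2 fold difference of 2.48 (SE 0.18, edgeR, adjusted p = 1.36e-05). In this pair Mut_317 was the highest and Mut_340 the lowest knockout for both genes.

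Gm29260 (chr1:41781808-41939560, plus strand) was the most abundant of the lincRNAs that rose. Its levels were 21.03, 29.7, 22.02 and 22.1 CPM in the controls and 47.5, 42.8, 40.3 and 68.6 CPM in the Sufu-cKO samples, with a log2 fold difference of 1.07 (SE 0.18, edgeR, adjusted p = 0.00501). Mut_340 stood above the other 3 knockouts and Cont_345 above the other 3 controls. No tested coding gene starts within 100 kb of it. The nearest, Pou3f3, a neural transcription factor gene 914 kb away, stood at a log2 difference of 0.04 (SE 0.084, adjusted p = 0.835 by edgeR). Pantr1, a lincRNA next to Pou3f3, was at 93.5, 104, 92.4 and 93.5 and 109, 99.3, 94.4 and 158 CPM, and did not pass (a log2 fold difference of 0.26 (SE 0.15, edgeR, adjusted p = 0.356)), although Mut_340 was the highest knockout there too.

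Of the 8 lincRNAs that rose, 4 start head to head with a coding gene (opposite strands, starts within 2 kb), namely Gm26793 above, 2010110K18Rik below, and the 2 with the shortest distances between starts. For 2610316D01Rik (chr3:45280437-45378260, minus strand) and Pcdh10, a non-clustered protocadherin, the start sites are 138 bp apart, and for Snhg18 (chr15:32240569-32244662, minus strand), a snoRNA host, and Sema5a, a semaphorin of axon guidance, 151 bp. The stretches between the paired starts are shown, since each is the region that both transcripts of a pair leave in opposite directions. They are written 5′ to 3′ on the lincRNA's strand, ending at its start site, from RefSeq promoters of GRCm38.p6, at chr3:45378261-45378397 and chr15:32244663-32244812, both on the minus strand, with no base marked.
2610316D01Rik and Pcdh10: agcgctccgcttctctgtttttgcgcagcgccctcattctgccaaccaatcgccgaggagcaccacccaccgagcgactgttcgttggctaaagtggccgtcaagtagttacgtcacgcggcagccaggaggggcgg
Snhg18 and Sema5a: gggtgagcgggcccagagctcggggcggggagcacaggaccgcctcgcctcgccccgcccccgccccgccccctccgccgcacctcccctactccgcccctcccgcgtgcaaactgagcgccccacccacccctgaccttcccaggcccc
G and C make up 62.0% of the first stretch and 79.3% of the second. 2610316D01Rik was at 12.5, 10.7, 10.1 and 12.6 CPM in the controls and 16.6, 13.3, 14.7 and 18.5 CPM in the Sufu-cKO samples, with a log2 fold difference of 0.46 (SE 0.12, edgeR, adjusted p = 0.0327). Pcdh10 was at 46.2, 47.8, 51.2 and 60.6 and 93.0, 87.6, 98.2 and 101 CPM, with a log2 fold difference of 0.88 (SE 0.085, edgeR, adjusted p = 3.99e-05). The genotypes did not overlap for either gene of this pair. Snhg18 was at 12.9, 12.5, 12.2 and 12.5 CPM and 14.1, 17.5, 16.97 and 17.4 CPM, with a log2 fold difference of 0.39 (SE 0.095, edgeR, adjusted p = 0.0190). Sema5a, at 157, 182, 173 and 156 and 157, 237, 203 and 229 CPM, overlapped between genotypes and was not called (a log2 fold difference of 0.31 (SE 0.12, edgeR, adjusted p = 0.148)). Mut_295 was the lowest knockout for both Snhg18 and Sema5a. The calls of 2610316D01Rik and of Snhg18 were each lost in 4 of the 8 fits without 1 sample, with adjusted p up to 0.102 and 0.0596, the fits without Cont_345 and Cont_365 among them.

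The remaining 3 of the 8 lincRNAs that rose are on chromosome 18, which holds 6 members. 2700046A07Rik (chr18:62751674-62756347, minus strand) was at 4.77, 4.56, 5.24 and 4.43 CPM in the controls and 10.3, 11.9, 8.62 and 8.85 CPM in the Sufu-cKO samples, with a log2 fold difference of 1.06 (SE 0.14, edgeR, adjusted p = 3.41e-04). Its nearest tested coding gene, Gm17732, starts 94.2 kb away and was not called (a log2 fold difference of -0.19 (SE 0.39, edgeR, adjusted p = 0.837)). Gm10544 (chr18:37159854-37178522, minus strand) lies in the alpha cluster of protocadherins, cell adhesion proteins whose genes sit in tandem arrays. It was at 3.94, 3.14, 2.91 and 3.73 CPM and 6.52, 4.89, 5.71 and 6.72 CPM, with a log2 fold difference of 0.80 (SE 0.16, edgeR, adjusted p = 0.00679). Its nearest coding neighbour is named PCDHA9 in the deposited table, but a later annotation, GENCODE M21, names the same gene ID Pcdhac2. The start of this neighbour is 35.0 kb away, but Gm10544 lies within the neighbour's span, on the opposite strand, over 18669 bp. The neighbour was also higher, by a log2 fold difference of 0.74 (SE 0.13, edgeR, adjusted p = 0.00276). Exons of Gm10544 overlap those of Pcdha11 on the other strand over 852 bp, and Pcdha11 was not called. 2010110K18Rik (chr18:34751809-34758685, plus strand) was at 3.91, 3.94, 4.26 and 4.74 CPM and 5.46, 6.27, 5.27 and 7.27 CPM, with a log2 fold difference of 0.52 (SE 0.15, edgeR, adjusted p = 0.0401). It starts 276 bp from Cdc25c, a phosphatase of mitotic entry, which did not pass (a log2 fold difference of 0.15 (SE 0.059, edgeR, adjusted p = 0.139)). For all 3 lincRNAs every knockout lay above every control, by a gap that was small for 2010110K18Rik, whose call was lost in 5 of the 8 fits that left out 1 sample (Cont_294, Cont_345 and Cont_365 among them) and without the low-count filter.

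**Figure D2:**
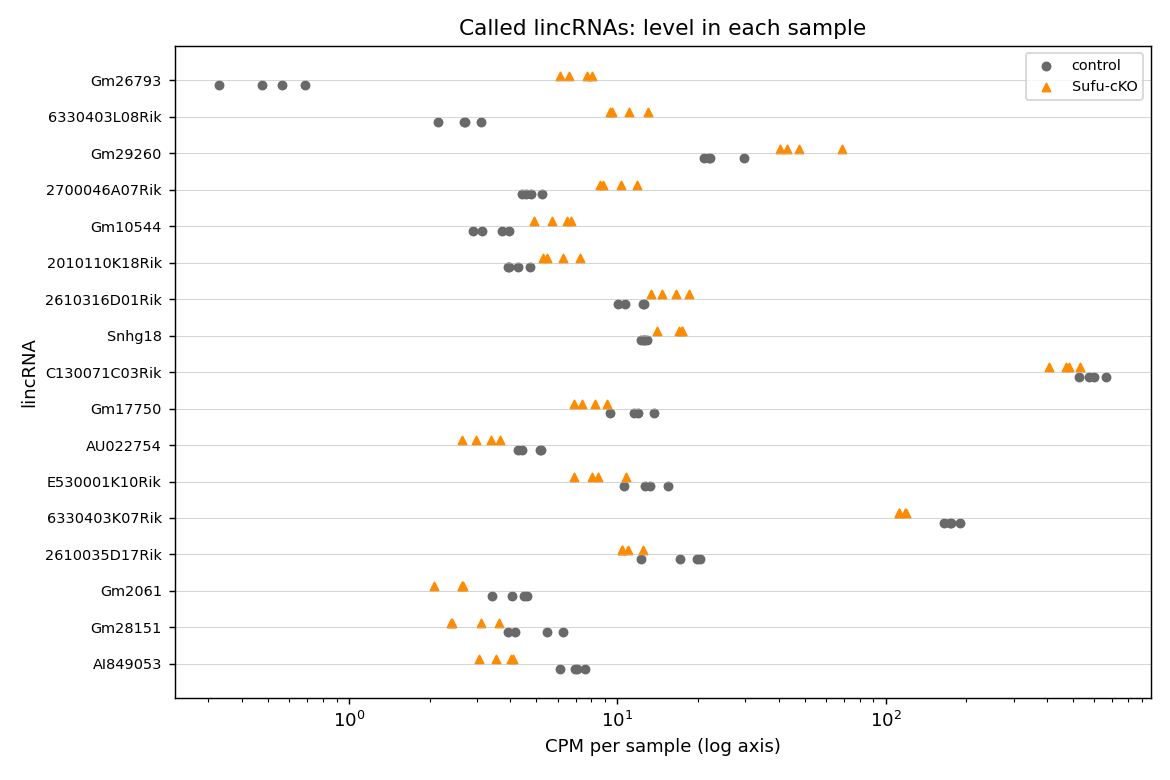
CPM of the 17 called lincRNAs in each of the 8 samples on a log axis, with controls as circles and Sufu-cKO samples as triangles. The genotypes are apart for 14 of them and overlap for 2610035D17Rik, E530001K10Rik and C130071C03Rik.

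Among the lincRNAs that fell, 6330403K07Rik (chr11:71031941-71033513, minus strand) had the smallest error. It was at 165, 174, 189 and 175 CPM in the controls and 119, 112, 112 and 119 CPM in the Sufu-cKO samples, with a log2 fold difference of -0.61 (SE 0.056, edgeR, adjusted p = 2.57e-05). The spread within either genotype was small beside the gap, and the call held in all 15 alternative settings. GENCODE M21 lists 80 of the 116 members as lincRNA, 10 as antisense, 9 as bidirectional promoter RNAs and some under other types, and 8 were not found in it. In that annotation 6330403K07Rik is protein coding, so its place among lincRNAs, like that of the other relisted members, depends on the annotation. Its nearest tested coding gene, Derl2, which acts in degradation of proteins from the endoplasmic reticulum, starts 13.7 kb away and had a log2 fold difference of 0.00 (SE 0.063, edgeR, adjusted p = 0.994).

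AI849053 (chr3:88199102-88204595, minus strand) had the largest decrease. It stood at 7.58, 7.07, 6.10 and 6.97 CPM in the controls and 3.54, 4.08, 3.05 and 4.04 CPM in the Sufu-cKO samples, with a log2 fold difference of -0.91 (SE 0.14, edgeR, adjusted p = 0.00150), and the genotypes did not overlap. Its start site is 2.22 kb from that of Gm3764, the Mir9-1 host, on the opposite strand. Both transcripts run away from the gap between them. The nearest coding gene, Mef2d, a transcription factor gene 62.2 kb away, was not called (a log2 fold difference of -0.14 (SE 0.066, edgeR, adjusted p = 0.250)).

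Gm2061, AU022754 and Gm28151 fell together with the coding gene that each overlaps. Gm2061 (chr1:185447116-185455568, minus strand) starts 720 bp from Slc30a10, a manganese and zinc transporter, on the other strand, with an exon overlap of 533 bp. It was at 3.43, 4.63, 4.04 and 4.49 CPM in the controls and 2.65, 2.68, 2.08 and 2.65 CPM in the Sufu-cKO samples, with a log2 fold difference of -0.72 (SE 0.16, edgeR, adjusted p = 0.0137). Slc30a10 was at 68.4, 97.7, 97.2 and 78.0 and 33.7, 30.1, 21.01 and 33.8 CPM, with a log2 fold difference of -1.53 (SE 0.17, edgeR, adjusted p = 5.54e-04). Mut_337 was the lowest sample for both.

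AU022754 (chr15:85581142-85593708, plus strand) starts 679 bp from Wnt7b, a Wnt ligand gene, on the other strand, with an exon overlap of 324 bp. It was at 4.43, 4.27, 5.21 and 5.17 CPM in the controls and 3.38, 3.66, 2.99 and 2.65 CPM in the Sufu-cKO samples, with a log2 fold difference of -0.59 (SE 0.16, edgeR, adjusted p = 0.0288). Wnt7b was at 106, 128, 147 and 121 and 72.3, 99.2, 89.8 and 73.6 CPM, with a log2 fold difference of -0.58 (SE 0.12, edgeR, adjusted p = 0.0120). Here lincRNA and coding gene differed by nearly the same fold, and neither overlapped between genotypes. Gm28151 (chr1:46849529-46850479, minus strand) lies inside Slc39a10, a zinc importer gene, on the same strand and outside its exons. It was at 5.45, 4.16, 3.92 and 6.27 CPM and 3.11, 3.63, 2.403 and 2.42 CPM, with a log2 fold difference of -0.78 (SE 0.20, edgeR, adjusted p = 0.0267), while Slc39a10 was at 225, 218, 203 and 205 and 166, 169, 178 and 188 CPM, with a log2 fold difference of -0.28 (SE 0.058, edgeR, adjusted p = 0.00769). Since Gm28151 shares strand and intron with Slc39a10, its counts cannot be told apart from reads of unspliced Slc39a10 RNA. AU022754 lost its call in 5 and Gm28151 in 4 of the 8 fits without 1 sample, the fit without Cont_294 among them for both, and Gm2061 in 1, without Cont_345 (edgeR adjusted p = 0.0524).

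The remaining 4 that fell have no tested coding gene within 100 kb. 2610035D17Rik (chr11:113043895-113201838, minus strand) was at 17.1, 20.3, 19.8 and 12.3 CPM in the controls and 10.4, 10.9, 10.4 and 12.4 CPM in the Sufu-cKO samples, with a log2 fold difference of -0.65 (SE 0.15, edgeR, adjusted p = 0.0137). Cont_370, the lowest control, lay just below Mut_340, the highest knockout. Gm17750 (chr13:84025297-84064772, minus strand) was at 13.7, 9.37, 11.9 and 11.5 CPM and 9.17, 6.90, 7.38 and 8.27 CPM, with a log2 fold difference of -0.55 (SE 0.14, edgeR, adjusted p = 0.0222), and its highest knockout was only slightly below its lowest control. It lies in the same stretch of chromosome 13 as C130071C03Rik. The other 2, E530001K10Rik and C130071C03Rik, are microRNA hosts and are given with that group. The nearest coding genes of these 4 (Sstr2, Tmem161b, Hsd17b12 and Mef2c, at 418, 158, 107 and 217 kb) had log2 fold changes of -0.07, -0.20, 0.04 and -0.11, and none was called. The call of 2610035D17Rik was lost without Cont_345 (edgeR adjusted p = 0.0517), and that of Gm17750 in 3 fits without 1 sample, up to an adjusted p of 0.0733 without Cont_294.

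A tested coding gene started within 100 kb of 103 members, at a median of 5.04 kb, and 42 members were head to head with it (opposite strands, starts within 2 kb). Of the 12 called members with such a neighbour, 7 had a neighbour called in the same direction (58.3%), none had one called in the opposite direction, and 5 had one that was not called. However, 5 of the 7 are among the members that held under 400 counts in 1 genotype and so met the count minimum only through the genotype where they are high. With the 9 members of that kind left out, 2 of 7 had a neighbour called in the same direction (28.6%), those being Gm10544 and 2610316D01Rik, and the count over all 12 is a description only. The same count over called coding genes and their own nearest coding neighbours was 147 of 976 (15.1%), and 16 of 92 (17.4%) when both were head to head. Among the 91 uncalled members with a neighbour, 10 neighbours were called, 5 higher and 5 lower, a share close to the 11.4% of all tested protein-coding genes called. The called neighbours were Slc13a4, Aak1, Ryr1, Rgma, Ap3b2, Msi2, Sec14l1, Gdi2, Id4 and Galnt16. C030037D09Rik, which starts 132 bp from Msi2, an RNA-binding protein gene of progenitors, had a log2 fold change of -0.01 (SE 0.31), beside 0.45 for Msi2. Of the 42 head-to-head members 6 were called, of their coding partners 8, and for 4 pairs both were called, in the same direction. Over all tested genes 11.0% were called, and over protein-coding genes 11.4%. Of the lincRNAs in those 4 pairs, Gm26793, Gm2061 and AU022754 are among the members with under 400 counts in 1 genotype. Only 2610316D01Rik is not, so this count too is a description only. The figures for coding genes are a description of the same samples, and no test of the difference was made. Without Mut_340 the count of 7 fell to 4, and DESeq2 gave 11.

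**Figure D3:**
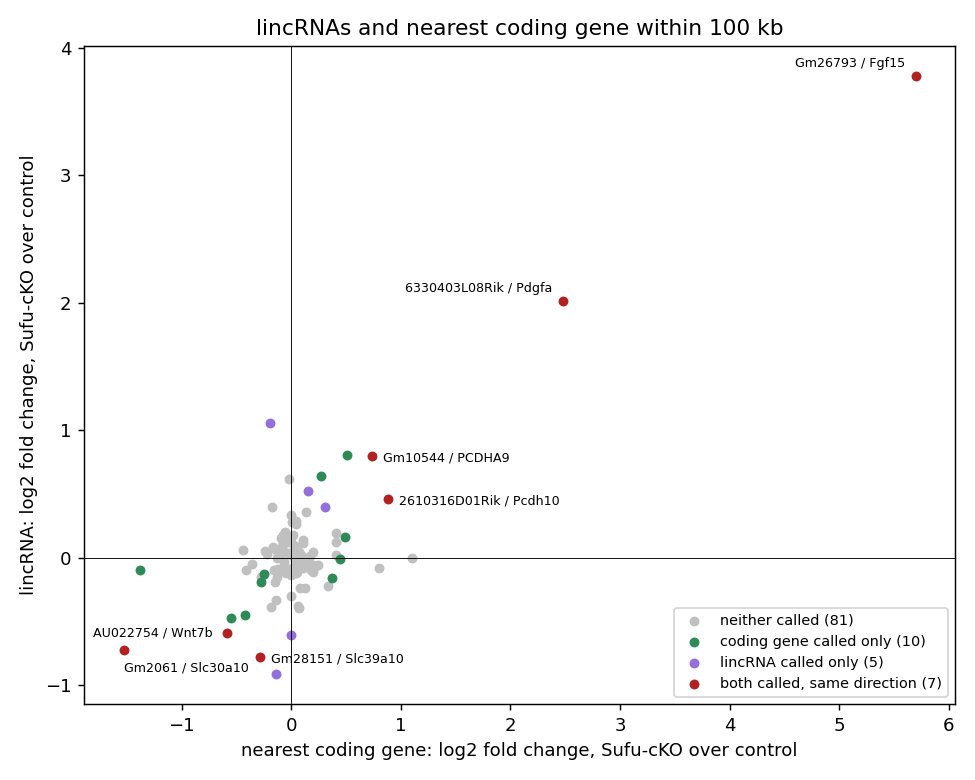
Log2 fold change (Sufu-cKO over control) of 103 lincRNAs against that of the nearest tested coding gene within 100 kb, coloured by which of the pair was called. The 7 pairs called together lie in the upper right and lower left, and 81 pairs with neither called crowd around 0.

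**Figure D4:**
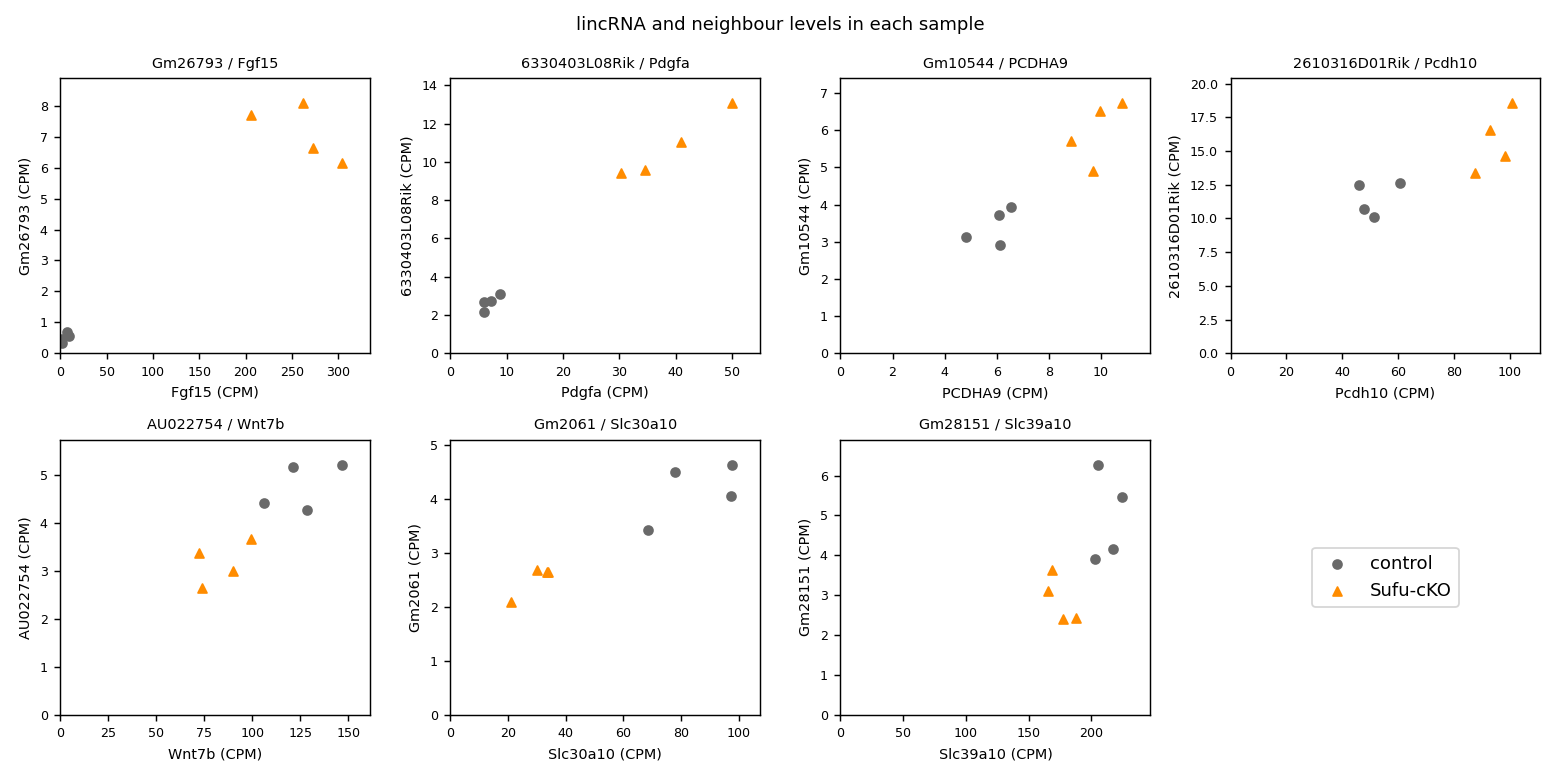
CPM of the lincRNA against CPM of its coding neighbour in each sample for the 7 pairs called in the same direction, with controls as circles and Sufu-cKO samples as triangles. In each panel the 2 genotypes are apart on both axes.

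Exons of 23 members overlap coding exons on the opposite strand, and 5 of these members were called (21.7%, beside 11.0% of all tested genes and 7.42% of tested antisense genes). Of these 5, all but Gm10544 (Gm26793, 6330403L08Rik, AU022754 and Gm2061) held under 400 counts in 1 genotype. They met the count minimum only through the genotype where they are high, so this share is a description only. The library kit keeps strand, but whether the counting used it is not given in the sources used here, so reads of such partners may not be fully told apart. Gm26735 has 98.8% of its exon bases over Sox4, a transcription factor gene, and its counts were 1.42% to 2.20% of those of Sox4 over the 8 samples. Gm26669, with 92.5% of its exon bases over Zfp36l1, was at 1.85% to 2.74% of it, and Gm26582, with 65.4% over G3bp2, at 0.667% to 1.15%. These 3 were picked for their overlap, and none was called. Such a ratio includes the lincRNA's own reads and depends on the unknown counting, so it cannot show how far the strands were told apart. For 3 of 4 called pairs the ranges of the ratio in the 2 genotypes did not overlap. Gm26793 counts were 6.39% to 34.1% of Fgf15 counts in the controls but 2.02% to 3.74% in the knockouts, and 27.9% of its exon bases overlap Fgf15. Those of 6330403L08Rik were 35.4% to 45.4% of Pdgfa and then 26.1% to 31.2%. For Gm2061 the ratio to Slc30a10 went the other way, from 4.16% to 5.75% in the controls against 7.85% to 9.90%. AU022754 kept overlapping ratios to Wnt7b, of 3.33% to 4.27% and 3.33% to 4.67%.

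Of the 10 microRNA hosts by position, 2 were lower, none higher and 8 not called (of which only Gm3764 had an unadjusted p under 0.05), with a median log2 fold change of -0.14 and a range of -0.60 to 0.16. Mir124-2hg, a host by name outside these 10, lay above that range at 0.34 and was not called. Over all tested genes 11.0% were called, and 5.64% were lower. Libraries of poly(A) RNA measure the host transcript and not the mature microRNA. C130071C03Rik (chr13:83721381-83884194, plus strand), the Mir9-2 host, was at 664, 571, 528 and 598 CPM in the controls and 469, 484, 407 and 532 CPM in the Sufu-cKO samples, with a log2 fold difference of -0.32 (SE 0.087, edgeR, adjusted p = 0.0351). Cont_365 lay just below Mut_340, so the groups overlapped. Gm3764 (chr3:88206813-88229959, plus strand), the Mir9-1 host, was at 507, 562, 449 and 601 and 474, 463, 339 and 410.0 CPM, and with a log2 fold difference of -0.33 (SE 0.12, edgeR, adjusted p = 0.114) it was not called, although DESeq2 called it (adjusted p = 0.0379). AI854517 (chr7:79500026-79534403, plus strand), the Mir9-3 host, was at 145, 153, 138 and 173 and 146, 156, 122 and 124 CPM, with a log2 fold difference of -0.15 (SE 0.092, edgeR, adjusted p = 0.376). The 3 loci that share the miR-9 sequences printed above thus had estimates below 0, of which edgeR called 1, and no test compared the loci with each other. The call of C130071C03Rik was lost in 6 of the 8 fits without 1 sample, with adjusted p up to 0.100, the fits without Cont_294 and Cont_345 among them.

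E530001K10Rik (chr2:94251879-94264758, minus strand), the Mir670 host, was at 15.4, 13.3, 12.7 and 10.6 CPM in the controls and 8.08, 8.52, 6.92 and 10.8 CPM in the Sufu-cKO samples, with a log2 fold difference of -0.60 (SE 0.15, edgeR, adjusted p = 0.0260). Mut_340 lay above Cont_370, and the call was lost in 6 of the 8 fits without 1 sample (without Cont_294 and Cont_345 among them). Mir17hg, whose microRNAs are known for promoting growth of progenitors, was at 49.8, 42.1, 47.8 and 75.1 and 54.1, 49.6, 44.8 and 47.8 CPM, with a log2 fold difference of -0.13 (SE 0.16, edgeR, adjusted p = 0.716). Cont_370 was far above the other controls. Rmst, a neural lincRNA that spans Mir135a-2 and Mir1251, was at 47.7, 27.0, 33.6 and 31.7 and 32.0, 36.0, 29.8 and 24.6 CPM, with a log2 fold difference of -0.19 (SE 0.17, edgeR, adjusted p = 0.593). The let-7d host 6720427I07Rik was at 13.04 ± 3.52 CPM in the controls and 12.3 ± 0.457 in the Sufu-cKO samples (SD, n = 4 each), with a log2 fold difference of -0.08 (SE 0.16, edgeR, adjusted p = 0.822). Mir124-2hg, named for the neuronal miR-124, was at 80.6, 69.7, 62.4 and 108 and 112, 94.7, 96.9 and 104 CPM, with a log2 fold difference of 0.34 (SE 0.15, edgeR, adjusted p = 0.226). It was called only without Cont_370, its highest control (edgeR adjusted p = 0.00492).

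Of the 9 hosts of snoRNAs or the related scaRNAs, 1 was called, Snhg18, with a median log2 fold change of 0.02 over the 9. Over all tested genes 11.0% were called. SnoRNAs guide chemical modification of ribosomal RNA, and are cut from introns of their hosts. Snhg1, which holds 8 of them, was at 96.9, 79.95, 88.0 and 88.2 CPM in the controls and 89.5, 85.1, 90.4 and 88.3 CPM in the Sufu-cKO samples, with a log2 fold difference of 0.00 (SE 0.063, edgeR, adjusted p = 0.998). Its samples were among the least spread of the set. Snhg6, Snhg7 and Snhg12 had log2 fold changes of 0.00, 0.03 and 0.04 (SE 0.11, 0.13 and 0.16). None of 7 tested genes of box snoRNP proteins, which bind snoRNAs, was called by edgeR, DESeq2 or limma-voom, and none of 8 genes of nonsense-mediated decay, which degrades many spliced snoRNA hosts. At an unadjusted p under 0.05 edgeR also gave 0 for both lists.

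**Figure D5:**
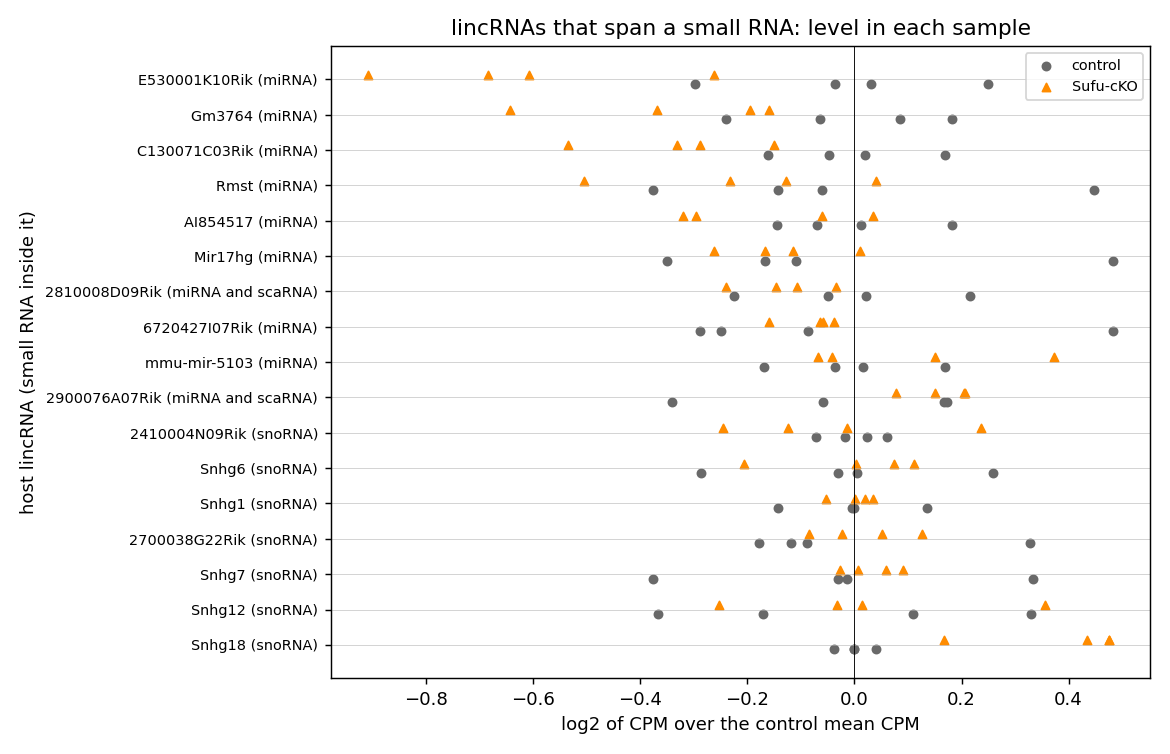
Log2 of each sample's CPM over the control mean for the 17 lincRNAs that span a microRNA or a snoRNA or scaRNA, with controls as circles and Sufu-cKO samples as triangles. The 3 miR-9 hosts and E530001K10Rik have most Sufu-cKO samples left of 0. Uncalled hosts do so too, among them Rmst, Mir17hg, 6720427I07Rik and 2810008D09Rik. Snhg18 has all 4 to the right, and so has the uncalled 2900076A07Rik.

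The 8 members with the highest CPM held 62.6% of the members' summed mean CPM, and 2 of the 8 (25.0%, beside 14.7% of all members and 11.0% of all tested genes), C130071C03Rik and 6330403K07Rik, were called. Miat, a nuclear lincRNA of neural cells, had the highest CPM of all, at 745, 688, 556 and 1031 in the controls and 924, 829, 718 and 822 in the Sufu-cKO samples, with a log2 fold difference of 0.12 (SE 0.17, edgeR, adjusted p = 0.755). Its control range, from Cont_365 to Cont_370, enclosed all 4 knockouts. 1700020I14Rik was at 377, 378, 356 and 384 and 331, 391, 351 and 391.7 CPM, with a log2 fold difference of -0.03 (SE 0.063, edgeR, adjusted p = 0.836). Malat1, a nuclear speckle RNA, was at 191, 265, 162 and 151 and 175, 185, 171 and 189 CPM, with a log2 fold difference of -0.09 (SE 0.16, edgeR, adjusted p = 0.802). Neat1, the scaffold of paraspeckles, was at 10.8, 8.53, 8.15 and 12.5 and 8.74, 6.76, 7.53 and 7.56 CPM and was not called (a log2 fold difference of -0.39 (SE 0.15, edgeR, adjusted p = 0.142)). None of 8 genes of paraspeckle proteins was called by edgeR, DESeq2 or limma-voom, and 0 had an unadjusted p under 0.05 by edgeR. Among 10 genes of Polycomb repressive complex 2 and of proteins that bind lincRNAs, Qk, an RNA-binding protein gene, was higher (log2 fold change 0.35, SE 0.072, edgeR adjusted p = 0.00763) and 9 were not called by edgeR. DESeq2 called 2 of the 10, both higher. On the lists by known role, 1 of 5 named snoRNA hosts was higher (Snhg18), 1 of 3 named microRNA hosts lower (C130071C03Rik), 1 of 5 neural lincRNAs lower (2610035D17Rik), and none of 3 nuclear or 2 growth-related lincRNAs was called by edgeR, DESeq2 or limma-voom, with Neat1 alone at an unadjusted p under 0.05 on both of the last lists. These lists are short, and the share called over all tested genes was 11.0%.

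Ranked by level per length (mean CPM per kb of exon, for the members with an exon length in GENCODE M21), the order was Yam1 at 159.6 ± 25.5, 6330403K07Rik at 97.5 ± 22.1, C130071C03Rik at 93.9 ± 14.2, Miat at 84.9 ± 15.8 and Gm3764 at 81.8 ± 14.2 CPM per kb (SD over all 8 samples). Neighbours from the second to the fifth in that order were less than 1 SD apart, and their order was not the same in the 2 genotypes. In the controls 6330403K07Rik stood at 118 ± 6.75, C130071C03Rik at 104 ± 10.1, Gm3764 at 91.1 ± 11.4 and Miat at 81.3 ± 21.6 CPM per kb (SD, n = 4). In the knockouts Miat was first of these at 88.6 ± 9.08, before C130071C03Rik at 83.5 ± 9.05, 6330403K07Rik at 77.3 ± 2.55 and Gm3764 at 72.5 ± 10.6. Yam1 led in both, while the next, 1700020I14Rik at 44.5 ± 2.61, lay below the lowest sample of all 5. Yam1, at 287, 315, 364 and 231 and 284, 322, 309 and 226 CPM with a log2 fold difference of -0.07 (SE 0.15, edgeR, adjusted p = 0.849), overlaps the RefSeq entry Rn18s-rs5, related by name to ribosomal RNA, so its reads may belong to copies of that RNA. Exon lengths were known for 107 members, with a median of 2880 bp, and 16 members had a single exon.

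The 99 members that were not called had log2 fold changes from -0.85 to 0.80, 50 above 0 and 49 below, and 76 lay within 0.2 of 0. The lowest of them, 5330426P16Rik, was at 17.2, 20.2, 29.7 and 15.4 CPM in the controls and 8.41, 18.2, 8.26 and 10.8 CPM in the Sufu-cKO samples, with a log2 fold difference of -0.85 (SE 0.30, edgeR, adjusted p = 0.128). The highest, Gm26604, was at 2.02, 4.67, 2.69 and 4.26 and 4.44, 6.86, 5.48 and 7.04 CPM, with a log2 fold difference of 0.80 (SE 0.26, edgeR, adjusted p = 0.0715). Both varied widely within a genotype. 7 uncalled members did not overlap between genotypes, and the nearest to a call of these, 1110002J07Rik, was at 5.45, 4.81, 4.04 and 5.20 and 3.54, 3.38, 2.49 and 3.75 CPM, with a log2 fold difference of -0.57 (SE 0.17, edgeR, adjusted p = 0.0507). 19 members had in the authors' deposited table a false discovery rate under 0.05 (16.4%, beside 9.34% of the 15382 genes tested here and 5.78% of the 25299 genes with a value there, many of which are too low to be tested here), the 17 called here plus 1110002J07Rik, with 0.0168, and 2810429I04Rik, with 0.0336.

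Members varied more between samples of a genotype than genes in general. Their median biological coefficient of variation was 15.7%, beside 11.2% over all tested genes, with a range of 6.51% (6330403K07Rik) to 30.8% (C030037D09Rik). The median was 17.8% in the block of 29 members with the lowest CPM and 12.3% in the highest, and the part of level in the difference from other genes was not tested. Among controls, Cont_370 held the highest value for 54 members (46.6%, beside 25.7% of all tested genes) and Cont_365 the lowest for 58. Their median deviations from the control mean were 0.10 and -0.12 on the log2 scale. Among knockouts Mut_337 was lowest for 45. The share over all tested genes was not computed for lowest values, so whether those counts are particular to the members was not tested. Within 10 Mb of Emx1 or Sufu, the altered loci, lie 2 members, 1600020E01Rik and 2610306M01Rik, with log2 fold changes of 0.08 and -0.16, and neither was called.

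RefSeq promoters (250 bases before to 50 after a start) were searched for 110 members, leaving aside the 6 on the chromosome of Gm10544, and matched for 60 of them, giving 68 promoters, with a median of 58.5% G and C beside 52.7% for all 32851 promoters searched. The GLI core GACCACCCA or its reverse complement TGGGTGGTC stood in 1 of the 68, that of 2610306M01Rik, which was not called, and in 0.253% of all promoters. The TCF/LEF core CTTTGAT or ATCAAAG was in none of the 68 and in 3.73% of all. The E-box CAGCTG, which reads the same on both strands, was in 12 of the 68 (17.6%) and in 16.3% of all. A match is only a match of letters, and for no motif does its absence from these windows bear on a factor. The first promoter of C130071C03Rik (chr13:83721131-83721430, plus strand, GRCm38.p6) is shown as that of the most abundant called lincRNA, with the E-box in capitals.
C130071C03Rik: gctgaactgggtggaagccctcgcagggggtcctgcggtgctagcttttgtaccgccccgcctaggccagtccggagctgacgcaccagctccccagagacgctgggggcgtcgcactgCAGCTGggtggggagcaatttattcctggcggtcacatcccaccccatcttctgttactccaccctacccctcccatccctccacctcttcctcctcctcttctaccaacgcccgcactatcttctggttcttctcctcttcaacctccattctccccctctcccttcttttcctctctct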

How the data were processed

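Poly(A) RNA of 8 samples (4 Sufu-cKO, 4 control) was sequenced, in libraries made with a stranded Illumina mRNA kit per the labels' protocols. Per the submitters' processing notes, STAR 2.4.2a and the GRCm38 build were used. How reads were assigned to genes, with which strand setting and annotation, is not given in the sources used here. Raw gene counts are as the authors deposited them. Their second table holds a normalized signal, which equals the deposited counts divided by 1 factor per sample. That table was used for names, biotypes, positions and the authors' false discovery rates given above. The authors also deposited a fold change and p-values with a false discovery rate (FDR) for each gene, by an unnamed test.

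Raw counts were fitted over all genes with edgeR 4.0.16 (R 4.3.3): filterByExpr at its defaults, TMM scaling, a robust quasi-likelihood fit, a two-sided test of genotype, Benjamini-Hochberg adjustment over 15382 genes and a threshold of 0.05. DESeq2 1.42.0, limma-voom (limma 3.58.1), other scalings and filters, other count minimums and fits without each sample were alternatives. The code was tested on simulated data. Neighbours are the nearest tested protein-coding genes by start site in the deposited coordinates, within 100 kb. Exon lengths, hosted hairpins and overlaps come from GENCODE M21 and RefSeq on GRCm38. Named are the called members, the 8 most abundant, and those on lists of snoRNA hosts, microRNA hosts, nuclear, neural and growth lincRNAs, with the nearest coding gene of each called member. Members and lists were chosen with earlier results of these data known. Names outside that rule (6720427I07Rik, 2810008D09Rik, 2900076A07Rik, Gm26735, Gm26669, Gm26582, 5330426P16Rik, Gm26604, 1110002J07Rik, 2810429I04Rik, C030037D09Rik, E330013P04Rik, A330048O09Rik, A730056A06Rik, 1600020E01Rik, 2610306M01Rik, Pcdha11, the threshold genes and the coding genes beside uncalled members), the host, overlap and sample-order counts, and the sequences shown were picked after their values were seen.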

Additional observations from a re-analysis of the deposited data

Results flagged for a closer look

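In 4 of the 64 groups of 4 samples examined (32 named lincRNAs in each genotype), 1 sample stood apart from the other 3 by most of the group's range. Chance alone flags about 5% of such groups. Gm29260 was at 29.7 CPM in Cont_345, above 21.03 to 22.1 CPM in the other controls. Pantr1 was highest in the same sample, at 104 CPM beside 92.4 to 93.5. Snhg18 was at 14.1 CPM in Mut_295, below 16.97 to 17.5 CPM in the other knockouts. Gm2061 was at 2.08 CPM in Mut_337, below 2.65 to 2.68.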

How the results depend on the processing

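The 17 calls all remained under RLE and upper quartile scaling, a filter of 1 CPM in 4 samples, non-robust estimation, DESeq2 and limma-voom, and 16 remained without a low-count filter, which lost 2010110K18Rik. DESeq2 gave 14 lower calls and 11 neighbours called in the same direction, against 9 and 7. A count minimum of 400 gave 13 higher and 14 lower, and one of 2000 gave 3 and 5, since the minimum sets how many members there are. In alternatives chosen after seeing the data, keeping only members with at least 400 counts in each genotype gave 6 higher, 6 lower and 2 neighbours called in the same direction, and adding back the lincRNAs removed by name gave 11, 9 and 9. Leaving out 1 sample at a time gave 5 to 10 higher calls, 4 to 9 lower, 4 to 7 neighbours called in the same direction and a median log2 fold change of -0.06 to 0.04. Of the 17 calls, 10 (without Cont_345) to 14 remained. Over all genes these fits gave 1079 (without Cont_345) to 1836 calls (without Mut_295), against 1689 with all samples. In all 8 such fits Gm26793, 6330403L08Rik, Gm29260, 2700046A07Rik, Gm10544, AI849053 and 6330403K07Rik remained called. No called value of a named lincRNA changed sign in any alternative. No paired analysis was possible because the genotypes share no replicate number. With 4 samples a group and members down to 3.21 CPM, standard errors reached 0.31 on the log2 scale, and their median ran from 0.17 in the block of 29 members with the lowest CPM to 0.12 in the highest, so the size of difference that could be detected varied between members.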
